A study of Mus musculus with 16 samples.

Results

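The Tcf7 and Lef1 loci are the genes of the transcription factors TCF-1 and LEF-1 with the 50 kb on either side of each gene, mapped here as open chromatin in mouse thymocytes. A peak belonged to a locus when it lay wholly between 50 kb before the start and 50 kb after the end of the gene, by the mm10 build and GENCODE M21. Of 476734 ATAC-seq peaks in the 4 stage lists, 414 met this rule. Where peaks from different stages overlapped by 1 bp or more they were joined into a single region, and 153 of 185978 regions lay at the loci, 60 at Tcf7 and 93 at Lef1.

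The study profiled accessible chromatin by ATAC-seq, in which a transposase cuts open DNA, through thymocyte development in wild-type C57BL/6J mice 9 weeks of age. All 16 samples were untreated and fell into 4 flow-sorted stages of 4 samples each. The same 4 mouse numbers label the samples of every stage, and the paper describes 4 animals, so the stages share their mice. Double negative (DN) cells were lineage-negative CD4-, CD8- and CD3-, double positive (DP) cells were lineage-negative CD4+ and CD8+, and the single positive stages were CD3+ with CD4 alone (SP4) or CD8 alone (SP8). The authors joined the 4 mice of each stage before calling peaks, so each stage is a single pool with no replicate error, and counting intervals below cover counting error only.

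TCF-1 and LEF-1 are related HMG-box factors that bind the same short DNA motif and can recruit beta-catenin, the effector of Wnt signalling, or Groucho-type corepressors. Notch signals switch on Tcf7 in early thymic progenitors, and TCF-1 then helps to open chromatin of T lineage genes. In the thymus the pair is known to act in the passage from DN to DP, in survival of DP cells and in the choice between the CD4 and CD8 lineages.

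The sequences of 12 regions, chosen from those that differed widely between stages or were high, are shown first because the values below refer to them. Each is 151 bases of the GRCm38 reference centred on the summit of the stage with the most reads relative to its genome mean, on the strand of the gene. Capitals mark exact matches, on either strand, to TCF/LEF (CTTTGA), RUNX (TGTGGT), ETS (GGAAGT), the motif of GATA factors (AGATAA), E-box (CAGCTG and its variant CACCTG), RBPJ (GTGGGAA), EGR (GTGGGCG), MYB (CAACTG) or IKZF (TGGGAA, which lies within the RBPJ motif). The 5 sequences from the Tcf7 locus, on the minus strand, lay at chr11:52299798-52299948, chr11:52268578-52268728, chr11:52265717-52265867, chr11:52241017-52241167 and chr11:52224091-52224241, in the order shown, with distances counted from the start of Tcf7.
Tcf7 16.9 kb upstream: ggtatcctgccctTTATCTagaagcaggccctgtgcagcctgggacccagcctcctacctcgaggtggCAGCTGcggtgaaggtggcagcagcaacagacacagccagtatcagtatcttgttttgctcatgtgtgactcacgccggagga
Tcf7 intron 2, 14.4 kb: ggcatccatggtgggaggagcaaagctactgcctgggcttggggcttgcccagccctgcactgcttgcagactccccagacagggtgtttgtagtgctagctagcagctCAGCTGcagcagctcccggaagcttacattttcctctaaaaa
Tcf7 intron 2, 17.0 kb: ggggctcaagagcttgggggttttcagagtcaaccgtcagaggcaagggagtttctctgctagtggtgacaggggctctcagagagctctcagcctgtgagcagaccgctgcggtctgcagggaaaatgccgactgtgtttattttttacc
Skp1a intron, 41.9 kb: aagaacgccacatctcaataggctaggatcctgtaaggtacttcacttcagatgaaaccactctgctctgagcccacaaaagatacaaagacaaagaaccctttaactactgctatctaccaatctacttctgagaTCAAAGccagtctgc
Tcf7 downstream, 58.6 kb: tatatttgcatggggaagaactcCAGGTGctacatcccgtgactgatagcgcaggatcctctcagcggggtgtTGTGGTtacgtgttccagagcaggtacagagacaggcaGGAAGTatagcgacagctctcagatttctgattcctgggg

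The E-box CAGCTG lay 7 bases from the summit 16.9 kb upstream of Tcf7, with a GATA match 62 bases away, and 34 bases from the summit at 14.4 kb. In the sequence at 58.6 kb, an E-box, a RUNX and an ETS match stood 52, 2 and 36 bases from the summit. Distances here and below are to the first letter of a match as shown, so this RUNX match runs over the summit. The sequence in the Skp1a intron held 1 TCF/LEF match, 61 bases from its summit, and the sequence at 17.0 kb held none of the 9 motifs.

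The 7 sequences from the Lef1 locus, on the plus strand, lay at chr3:131093826-131093976, chr3:131111997-131112147, chr3:131154064-131154214, chr3:131167859-131168009, chr3:131190846-131190996, chr3:131200043-131200193 and chr3:131208557-131208707, in the order shown, with distances counted from the annotated start of Lef1.
Lef1 16.6 kb upstream: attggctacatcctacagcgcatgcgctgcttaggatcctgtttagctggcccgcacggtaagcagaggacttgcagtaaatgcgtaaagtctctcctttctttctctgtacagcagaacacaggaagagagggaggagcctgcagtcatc
Gm43352 start in Lef1, 1.91 kb: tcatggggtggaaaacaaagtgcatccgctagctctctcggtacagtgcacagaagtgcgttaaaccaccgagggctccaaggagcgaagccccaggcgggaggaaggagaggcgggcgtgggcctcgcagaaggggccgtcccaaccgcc
Lef1 intron 3, 43.6 kb: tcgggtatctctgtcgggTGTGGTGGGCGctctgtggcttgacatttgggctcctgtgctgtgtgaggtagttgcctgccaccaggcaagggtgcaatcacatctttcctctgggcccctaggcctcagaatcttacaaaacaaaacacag
Lef1 intron 3, 57.5 kb: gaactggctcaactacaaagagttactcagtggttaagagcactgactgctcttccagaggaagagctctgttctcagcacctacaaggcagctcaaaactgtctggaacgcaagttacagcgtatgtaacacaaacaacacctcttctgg
Lef1 coding exon region, 80.8 kb: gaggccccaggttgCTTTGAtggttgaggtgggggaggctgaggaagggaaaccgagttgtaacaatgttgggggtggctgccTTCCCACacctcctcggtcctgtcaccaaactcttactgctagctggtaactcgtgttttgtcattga
Lef1 intron 8, 89.5 kb: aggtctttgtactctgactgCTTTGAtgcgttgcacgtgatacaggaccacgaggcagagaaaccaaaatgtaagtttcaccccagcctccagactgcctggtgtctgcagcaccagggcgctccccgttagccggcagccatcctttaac
Lef1 intron 11, 98.0 kb: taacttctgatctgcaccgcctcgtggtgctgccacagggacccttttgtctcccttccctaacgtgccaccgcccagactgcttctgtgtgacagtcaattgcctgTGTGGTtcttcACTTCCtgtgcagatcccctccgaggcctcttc

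A TCF/LEF match stood 61 bases from the summit at 80.8 kb, with an RBPJ match 8 bases away, and 55 bases from the summit in intron 8. The run TGTGGTGGGCG at 43.6 kb is a RUNX match that overlaps an EGR match, and the intron 11 sequence held RUNX and ETS matches 32 and 43 bases from the summit. The sequences 16.6 kb upstream, at the Gm43352 start and at 57.5 kb held none of the 9 motifs. Of all 151-base windows around the summits of the 4 lists, 12.1% held a TCF/LEF match, 19.7% a RUNX match, 20.6% an ETS match, 29.9% an E-box, 5.33% a GATA match, 3.17% an RBPJ match, 2.24% an EGR match, 7.84% a MYB match and 10.4% an IKZF match. A match is a description of the letters and does not show that a factor bound there.

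Heights are given as reads at the summit, that is reads counted within 50 bp of the highest point of a peak. The deposited fold enrichment and p-value of each peak together fix this count and the local background, and whole counts, within 0.05 of a whole number, were recovered for 476726 of 476734 peaks. The genome mean was 3.51 reads per 100 bp at DN, 3.28 at DP, then 3.22 at SP4 and 3.58 at SP8, so the depths of the pools were alike. The local background is the mean of the surrounding 10 kb, or the genome mean where that is higher, as it was for 26.3% of the DN peaks, 27.3% at DP, 28.1% at SP4 and 26.0% at SP8, and values of 10 kb at the genome mean are therefore upper bounds. Ratios between stages are ratios of reads divided by these means, with 95% exact binomial intervals. In pooled cells, a change in the share of cells with an open region and a change of openness within each cell cannot be told apart.

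Both loci were among the densest in peaks of all protein-coding genes. Tcf7, on chromosome 11 (chr11:52252371-52283014, minus strand), held 45.9 regions per 100 kb, and Lef1, on chromosome 3 (chr3:131110471-131224356, plus strand), held 43.5. The median of 20780 protein-coding genes with the same flanks was 13.9, and the loci stood at the 99.9 percentile of them. The gene bodies differ in size, 30644 bp for Tcf7 and 113886 bp for Lef1, so most regions of Tcf7 lay in its flanks (22 upstream, 17 in the gene and 21 downstream) and most of those of Lef1 in the gene (19 upstream, 60 in the gene and 14 downstream).

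Stage by stage, the loci moved in different ways. Tcf7 held 40 peaks at DN, 48 at DP, then 42 at SP4 and 39 at SP8, which covered 8.91%, 9.92%, 10.1% and 10.1% of its 130644 bp. Lef1 held 58, 49, 72 and 66 peaks, which covered 6.59%, 5.80%, 8.92% and 9.40% of its 213886 bp. Over all protein-coding genes the median cover was 3.60%, 2.80%, 2.94% and 2.82%. Tcf7 was thus broadly covered from DN on, whereas Lef1 had more cover at the single positive stages than at DN or DP.

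These gains ran against the trend of the whole lists, in which the bases covered were 0.749 of the DN value at DP, then 0.807 at SP4 and 0.773 at SP8. Lef1 had 1.35 times as many bases covered at SP4 as at DN, and 1.43 times as many at SP8, which placed it at the 98.7 and 99.3 percentiles of 9692 genes with at least 20 regions, whose medians were 0.846 and 0.843. At the step from DN to DP, Lef1 stood at 0.880, near the median of 0.836, and with the 4 lists cut to the same length this value turned to 1.24, since 30 of the 58 Lef1 peaks at DN were then left. Tcf7 rose at that first step to 1.11 times its DN cover, the 98.1 percentile, and then stood at 1.01 for SP4 over DP, near the median of 1.01. The parts of Tcf7 moved in different ways under this steady total. Its gene body was covered at 9.79% at DN, 14.8% at DP, then 11.7% at SP4 and 12.9% at SP8. The cover downstream of Tcf7 was 7.54%, 6.61%, 9.03% and 7.93% in the same order, and upstream 9.73%, 10.3%, 10.1% and 10.6%.

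Within Lef1 the gain lay in the gene body and downstream of it. Peaks covered 6.70% of the gene body at DN, 6.45% at DP, then 10.6% at SP4 and 11.5% at SP8, with 32, 30, 46 and 44 peaks. Upstream the cover was 6.87%, 5.17%, 6.04% and 6.46%, with no gain over DN. The cover downstream was 6.08%, 4.94%, 7.98% and 7.59%.

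**Figure D1:**
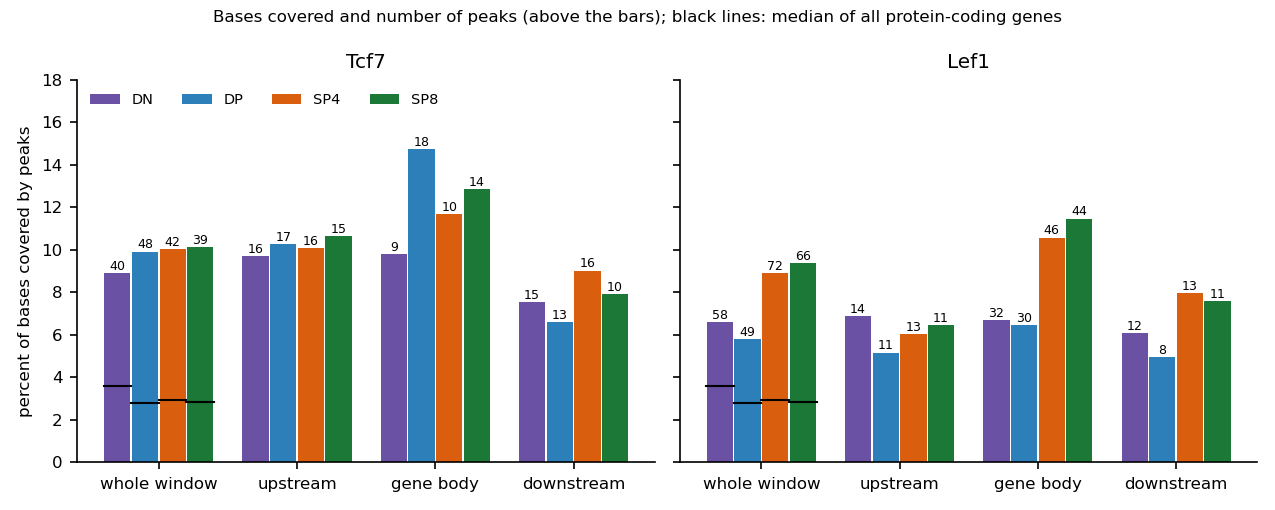
Percent of bases covered by peaks (y axis) at each stage (colours) over the whole locus, its upstream flank, the gene body and the downstream flank of Tcf7 and Lef1, with the number of peaks above each bar and the median of all protein-coding genes as black lines. The Lef1 gene body went from 6.45% at DP to 11.5% at SP8, while the upstream flank of Lef1 stayed between 5.17% and 6.87%.

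Sharing of regions between stages was near that of the genome, but the stages that made up the rest differed. At Tcf7, 24 of 60 regions were called at all 4 stages and at Lef1 32 of 93, or 40.0% and 34.4%, against 34.1% of all merged regions. Single-stage regions numbered 19 at Tcf7 and 29 at Lef1, or 31.7% and 31.2%, against 38.5% in the genome.

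Calls at DN were fewer than in the genome, and calls at SP4 and SP8 more frequent. At DN 61.7% of the Tcf7 regions and 58.1% of the Lef1 regions were called, against 75.7% of all regions. At DP the shares were 70.0% and 49.5% against 53.9%, at SP4 66.7% and 74.2% against 58.3%, and at SP8 63.3% and 69.9% against 53.0%. Tcf7 was thus above the genome at the 3 stages after DN, and Lef1 at the single positive stages alone.

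Regions found at DN only made up 2 of 60 at Tcf7 and 7 of 93 at Lef1, against 21.7% in the genome. DP-only regions numbered 6 at Tcf7 and 3 at Lef1 (genome 5.17%), SP4-only regions 6 and 14 (7.39%), and SP8-only regions 5 and 5 (4.21%). Regions shared by SP4 and SP8 alone numbered 1 at Tcf7 and 12 at Lef1, or 12.9% of the Lef1 regions against 3.82% of all regions. Those shared by DN and DP alone numbered 4 and 3, against 5.59%.

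Put together, 31 of the 93 Lef1 regions were called at a single positive stage and at neither DN nor DP, and 24 of the 31 lay in the gene body. The same class made up 15.4% of all regions. Only 13 Lef1 regions were called at DN or DP without SP4 or SP8, against 32.5% of all regions. Tcf7 had 12 regions of each class.

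Lef1 intron 3, a stretch of 69096 bp by the longest annotated transcript, held 46 regions, 20 of them called at SP4 or SP8 and at neither earlier stage. Calls in this intron numbered 20 at DN, 20 at DP, then 34 at SP4 and 35 at SP8. Intron 2 of Tcf7, of 20497 bp, held 9 regions, of which 5 were called at DN, 8 at DP, then 6 at SP4 and 8 at SP8.

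**Figure D2:**
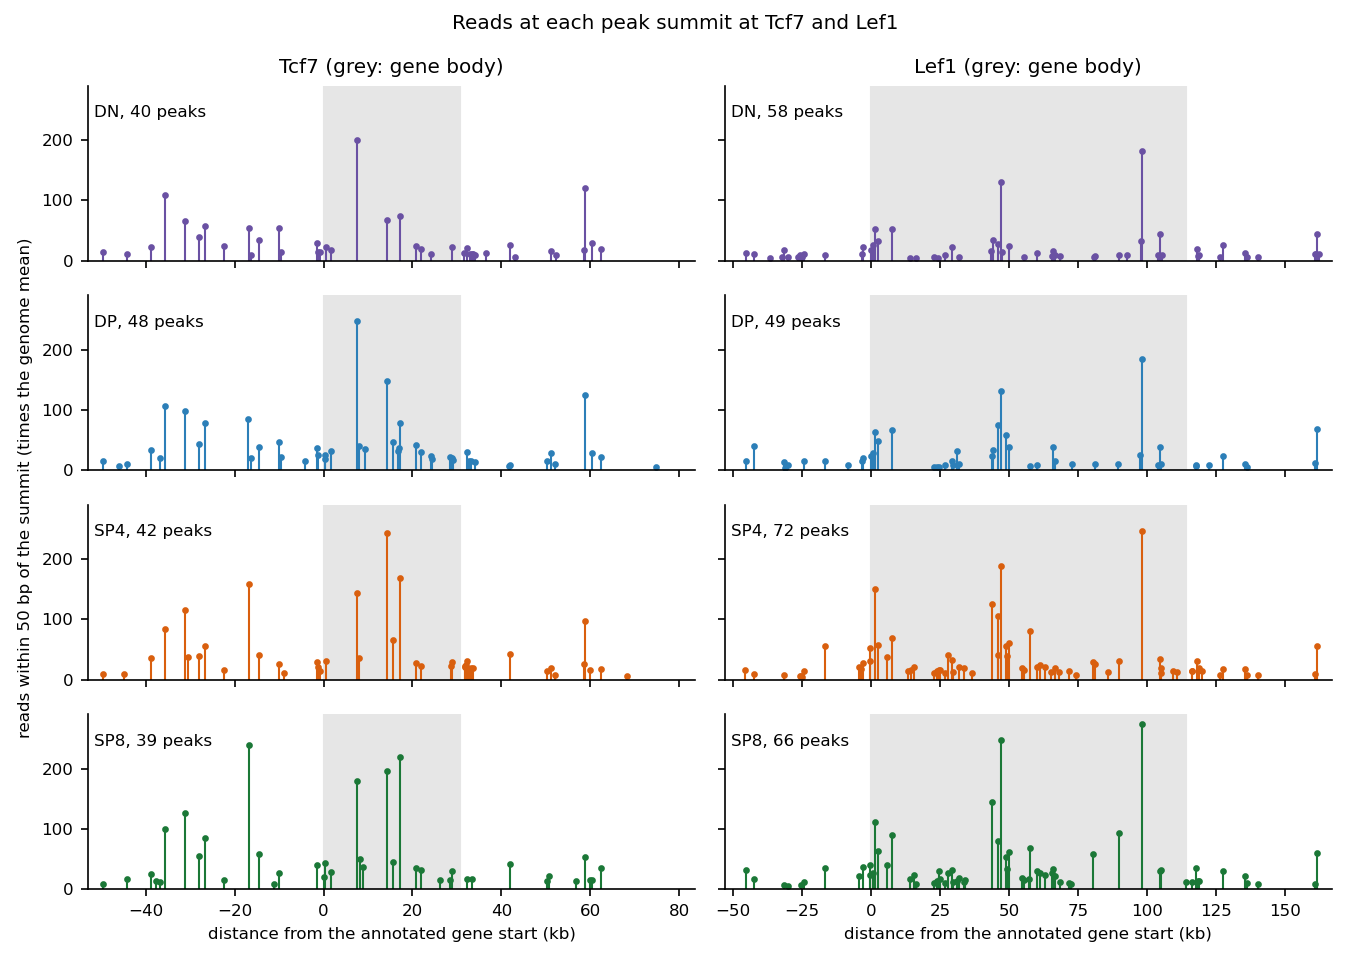
Reads within 50 bp of each summit, as multiples of the genome mean (y axis), against the distance from the annotated gene start in kb (x axis) for every peak at Tcf7 (left) and Lef1 (right) at the 4 stages, with the gene body in grey. Lef1 held 49 peaks at DP and 72 at SP4, and most of the added peaks stand inside the gene.

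Where a region was called at both stages of a step, its reads could be compared directly. From DN to DP, 2 of 31 Tcf7 regions and 3 of 38 Lef1 regions had at least 2 times the reads, against 3.88% of regions in the genome, and 1 region of each locus had at most 1/2, against 16.5%. The median ratio was 1.25 at Tcf7, with 26 of 31 regions higher at DP, and 1.10 at Lef1, against 0.900 over all regions. In the genome 34974 of 83779 shared regions were higher at DP. Tcf7 thus gained reads at the step at which most shared regions of the genome lost them.

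From DP to SP4 the order turned around. At Lef1, 13 of 36 shared regions had at least 2 times the reads, or 36.1% against 13.0% in the genome, and 1 had at most 1/2, against 8.41%. At Tcf7, 2 of 29 rose by this measure and 0 fell. The median ratio was 1.41 at Lef1 and 0.908 at Tcf7, against 1.09 over all regions.

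From DP to SP8 the counts at Lef1 were 13 of 40 with at least 2 times the reads, or 32.5% against 12.3%, and 4 with at most 1/2, against 9.17%. At Tcf7 they were 3 and 1 of 31. The median ratio was 1.56 at Lef1, against 1.10 over all regions, and 1.02 at Tcf7, which turned to 0.926 when reads were scaled to a genome-wide median ratio of 1. Under this scaling the Tcf7 counts were 3 and 3, against 9.64% and 11.5% in the genome. The counting interval of the ratio lay wholly above 1 for 23 of the 40 Lef1 regions, against 29.7% in the genome, and wholly below 1 for 4, against 18.4%.

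Between the single positive stages few regions moved by 2 times. Of 54 Lef1 regions called at SP4 and SP8, 1 had at least 2 times the reads at SP8, against 4.71% in the genome, and 0 had at most 1/2, against 7.06%. None of 30 Tcf7 regions moved by 2 times either way. The counting interval lay above 1 for 13 and below 1 for 5 of the 30 Tcf7 regions, and above for 13 and below for 6 of the 54 Lef1 regions, against 16.9% above and 18.3% below in the genome. The median ratio of SP8 over SP4 was 1.02 at Lef1 and 1.08 at Tcf7.

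Reads in the 10 kb around the summits describe these steps at a broader scale. From DP to SP4 the ratio of these reads had a median of 1.76 at Lef1, with 33 of 36 regions higher at SP4, and 0.999 at Tcf7. The median from DN to DP was 1.47 at Tcf7, with 30 of 31 regions higher at DP, and 1.12 at Lef1. From DP to SP8 it was 1.79 at Lef1 and 0.836 at Tcf7, where 12 of 31 regions were higher at SP8, compared with 30870 of 72095 in the genome. The genome counts of higher regions were 44197 of 83779 from DN to DP and 42371 of 74794 from DP to SP4. The genome median of each step was close to 1, but peaks at the genome mean at both stages have a ratio near 1 by construction. The genome medians and the genome counts are therefore a weak comparison for the loci. Neighbouring regions share part of their 10 kb, so these counts are not independent of each other.

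The broad density also set how the peaks ranked. By fold enrichment over the surrounding 10 kb, the median percentile of the Tcf7 peaks within their own list was 29.5 at DN, 19.1 at DP, then 20.2 at SP4 and 32.6 at SP8, and that of the Lef1 peaks 26.0, 31.4, 11.1 and 21.2. By reads at the summit the medians were 69.5, 74.0, 72.7 and 73.8 at Tcf7, and 43.1, 55.6, 62.6 and 66.6 at Lef1. Tcf7 thus held tall peaks on a high surrounding level at each stage, whereas the Lef1 peaks at DN were below the middle of their list.

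Lef1 formed 3 hills of read density along the gene, at its start, in the middle of intron 3 and in intron 11. Around the region at 1.91 kb the 10 kb held 6.94, 7.85, 14.3 and 13.0 times the genome mean at DN, DP, SP4 and SP8. The hill in intron 3, around the region at 47.1 kb, reached 7.18, 9.67, 18.1 and 20 times, and that in intron 11 reached 7.99, 7.41, 11.7 and 12.4 times. All 3 hills were present at DN and stood higher at the single positive stages.

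Between the hills the level at Lef1 was lower. Around the region at 24.5 kb the 10 kb held 1.27 and 1.49 times the genome mean at DN and DP, and 4.83 and 4.63 times at SP4 and SP8. The values around 80.8 kb were 1.32, 1.31, 4.49 and 4.70. Other places between the hills stood higher at the early stages, such as 66.0 kb with 2.39 times at DN and 2.69 at DP. At 16.6 kb upstream the 10 kb stayed low, no higher than the genome mean at DN and at 1.04, 1.71 and 1.24 times it at DP, SP4 and SP8. These 10 kb include the peak itself, and its part in their rise was not measured.

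**Figure D3:**
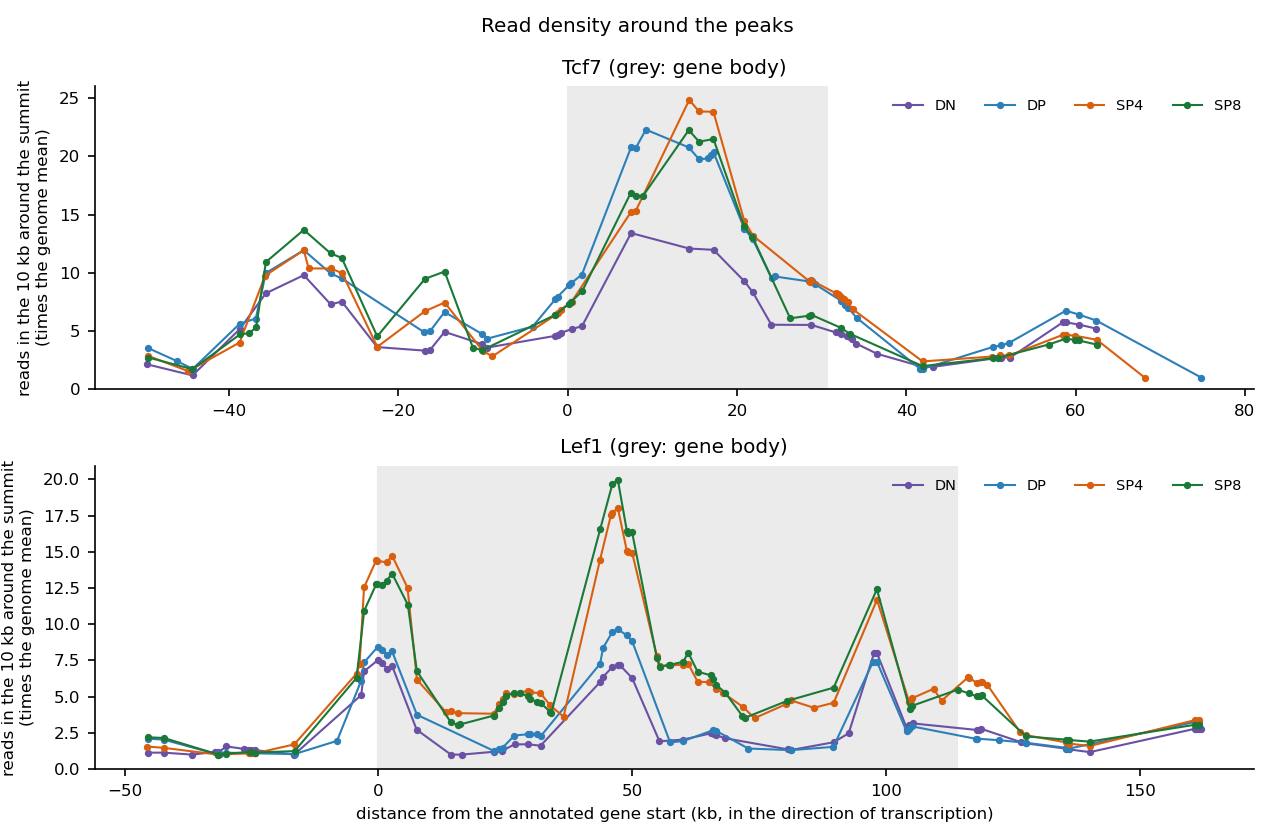
Reads in the 10 kb around each summit, as multiples of the genome mean (y axis), against the distance from the annotated gene start in kb, in the direction of transcription (x axis), for each stage (colours), with the gene body in grey. At Tcf7 the DN line is the lowest across the gene body, and across most of the Lef1 gene body SP4 and SP8 run above DN and DP.

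No peak covered the outermost annotated start of Lef1 in GENCODE, at chr3:131110471, but RefSeq starts just before it were open at all 4 stages. RefSeq, the source of start sites beside GENCODE, lists Lef1 starts at chr3:131110297 and chr3:131110323, and both lay in a region (chr3:131110189-131110399) with 65 reads at DN, 77 at DP, then 98 at SP4 and 84 at SP8. Its ratio to DP was 1.29 (0.951 to 1.77) at SP4 and 0.997 (0.723 to 1.38) at SP8, so no gain over DP went beyond counting error. Its ratio to DN was 1.64 (1.19 to 2.28) at SP4, above counting error, and 1.27 (0.905 to 1.78) at SP8. Another start, at chr3:131112791 within the gene, lay in a larger region (chr3:131111923-131112835) that also covers the start of the antisense gene Gm43352 at chr3:131112090. The DP peak did not reach the Lef1 start. At all stages the summits lay near the Gm43352 start and not at the Lef1 start, with 183 reads at DN, 209 at DP, then 486 at SP4 and 401 at SP8. The ratio of SP4 to DP was 2.37 (2.01 to 2.80), and that of DP to DN was 1.22 (0.999 to 1.5).

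A further RefSeq start of Lef1 lay in intron 3, at chr3:131156294, in a region (chr3:131156236-131156343) called at SP4 alone with 133 reads. The next region downstream (chr3:131156427-131156707) was called at all stages, with 97 reads at DN, 247 at DP, then 340 at SP4 and 285 at SP8. Just before the outermost RefSeq start, a region at chr3:131109839-131110097 was called at SP4 and SP8 only, with 171 and 144 reads.

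Of the other Lef1 regions, those with the largest ratio of SP4 to DP were in intron 3. The region at 43.6 kb (chr3:131153833-131154294) had 55 reads at DN, 78 at DP, then 406 at SP4 and 516 at SP8. SP4 stood 5.30 times as high as DP (4.15 to 6.84), SP8 6.05 times (4.76 to 7.78), and the intervals of DN and DP lie far below those of SP4 and SP8. The region at 57.5 kb (chr3:131167796-131168190) had no peak at DN, 25 reads at DP, then 259 at SP4 and 242 at SP8, a ratio of SP4 to DP of 10.5 (6.98 to 16.6).

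Other regions were highest at SP8. In intron 8 (chr3:131199631-131200243) the reads numbered 32 at DN, 31 at DP, then 102 at SP4 and 332 at SP8, and SP8 stood 2.93 times as high as SP4 (2.34 to 3.69), the single Lef1 region past 2 times at that step. The region at 80.8 kb (chr3:131190649-131191804), which covers a coding exon, had 28, 36, 96 and 206 reads in the same order, but its summits lay up to 924 bp apart, so these counts come from different sites within it. At 24.5 kb (chr3:131134790-131135111) there were 18, 18, 52 and 108 reads. The regions in intron 8 and at 24.5 kb share a low level at DN and DP and a stepwise order with SP4 in between.

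The region 16.6 kb upstream of Lef1 (chr3:131093654-131094100), in intergenic DNA, took the other order, with 34 reads at DN, 51 at DP, then 180 at SP4 and 126 at SP8. Its SP8 value was 0.629 of its SP4 value (0.497 to 0.794). By fold enrichment over its surroundings it ranked above 98.2% of all SP4 peaks. This was the highest rank of a Lef1 region outside start sites.

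The tallest region of the locus by reads, in intron 11 (chr3:131207696-131209206), was open from the start, with 638 reads at DN, 605 at DP, then 792 at SP4 and 981 at SP8. A region at 47.1 kb in intron 3 (chr3:131157346-131157866) had 456, 433, 608 and 888 reads in the same order. Both were high at each stage and rose by less than 2 times from DP to SP4.

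A few Lef1 regions did not follow the gain at the single positive stages. The region at 31.2 kb (chr3:131141539-131141843) was called at DP with 102 reads and at SP8 with 51, and that at 66.0 kb (chr3:131176258-131176594) at DN with 59, DP with 128 and SP8 with 118. A region 42.4 kb upstream (chr3:131067870-131068355), named after its values were seen, had 38 reads at DN, 130 at DP, then 29 at SP4 and 57 at SP8. These were higher at DP than at SP4 or had no SP4 peak. The single-stage regions of the highest rank had few reads, 33 at DP at 72.8 kb, and 32 and 22 at DN at 25.7 and 32.2 kb upstream.

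The start of Tcf7 was open at all stages but ranked below the middle of each list by fold over its surroundings. The region at its inner start (chr11:52282459-52282939), which covers the annotated start at chr11:52282571, had 77 reads at DN, 81 at DP, then 97 at SP4 and 157 at SP8. The outer start, at chr11:52283014, lay 75 bp beyond the edge of this region and under no peak at any stage. SP8 stood 1.45 times as high as SP4 (1.12 to 1.89), and SP4 1.37 times as high as DN (1.01 to 1.88). By fold over the surrounding 10 kb this peak ranked above 28.8% of the DN list, 3.16% at DP, then 22.4% at SP4 and 45.5% at SP8. The 10 kb themselves held 5.16, 9.12, 7.51 and 7.53 times the genome mean in the same order.

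Taller regions of Tcf7 lay in intron 2 and upstream. The region 16.9 kb upstream (chr11:52299611-52300193), between genes, had 189 reads at DN, 278 at DP, then 510 at SP4 and 854 at SP8, or 53.9, 84.9, 158 and 238 times the genome mean. DP stood 1.58 times as high as DN (1.31 to 1.91), SP4 1.87 times as high as DP (1.61 to 2.17), and SP8 1.5 times as high as SP4 (1.35 to 1.68). No other Tcf7 region had as wide a rise from DN to SP8, of 4.43 times (3.78 to 5.21).

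In intron 2, which also holds an exon of the noncoding gene Gm26551 read in the same direction, 3 tall regions took 3 different courses. At 14.4 kb (chr11:52268160-52269011) the reads numbered 234 at DN, 485 at DP, then 785 at SP4 and 700 at SP8, a gain of 2.22 times (1.90 to 2.61) already at DP. At 17.0 kb (chr11:52265574-52266447) they numbered 261, 256, 543 and 786, with the gain at SP4, of 2.16 times over DP (1.86 to 2.51). The region at 7.45 kb (chr11:52275161-52275966) was highest at DP, with 705, 812, 464 and 643 reads.

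Downstream of Tcf7 lay regions that fell or dipped. The region at 58.6 kb (chr11:52223973-52224792), in an intron of Gm26551, had 421 reads at DN, 408 at DP, then 315 at SP4 and 192 at SP8, and SP8 stood at 0.430 of DP (0.361 to 0.512). A region in an intron of Skp1a at 41.9 kb (chr11:52240755-52241474) had 92 reads at DN, 28 at DP, then 135 at SP4 and 150 at SP8. DP was thus the low stage there, at 0.326 of DN (0.206 to 0.503), while SP4 and SP8 did not differ beyond their counting intervals. Skp1a encodes a subunit of SCF ubiquitin ligases.

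Smaller differences were seen at other named Tcf7 regions. At 62.5 kb (chr11:52220367-52220616) there were 67 reads at DN, 70 at DP, then 57 at SP4 and 125 at SP8, and at 22.4 kb upstream (chr11:52305304-52305612) 86 at DN, none called at DP, then 50 at SP4 and 53 at SP8. The single-stage regions of the highest rank were low, with 18 reads at DP at 74.9 kb, 18 at SP4 at 68.1 kb and 45 at DN at 36.5 kb.

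**Figure D4:**
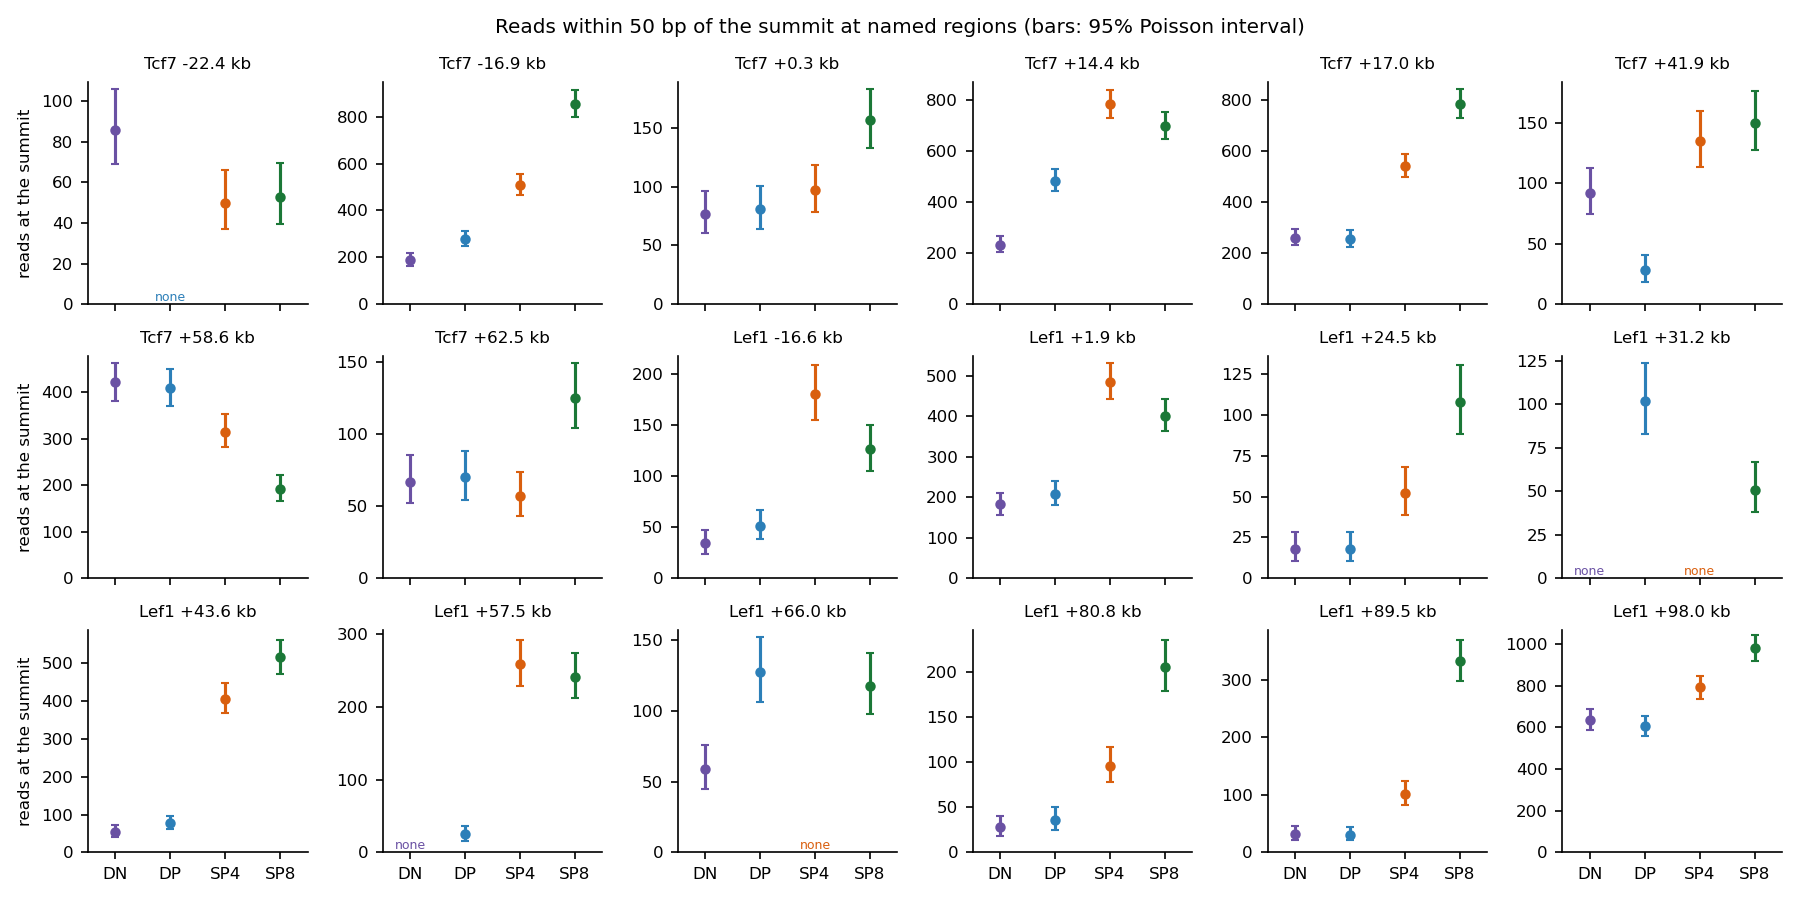
Reads within 50 bp of the summit (y axis, each panel with its own scale from 0) at DN, DP, SP4 and SP8 for the named regions of Tcf7 and Lef1, titled by their distance from the annotated gene start, with bars for 95% Poisson intervals of the count and "none" where no peak was called. The panel 16.9 kb upstream of Tcf7 climbs from 189 to 854 reads, and that at 43.6 kb of Lef1 steps from 78 reads at DP to 406 at SP4.

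Among regions called at all 4 stages, the highest stage was SP8 in 12 of 24 at Tcf7 and 17 of 32 at Lef1, against 29.4% of such regions in the genome. It was DN in 2 and 2, against 28.8%. DP was the highest in 5 at Tcf7 and 4 at Lef1, against 17.3%, and SP4 in 5 and 9, against 24.6%. The order of stages at these loci was thus turned toward SP8 and away from DN.

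Matches to the 9 motifs were counted within 50 bp of each summit. TCF/LEF matches stood at 17 of 169 Tcf7 summits (10.1%) and 15 of 245 Lef1 summits (6.12%), against 7.40% of all summits. Within 100 bp the TCF/LEF shares were 19.5% and 19.6% against 15.5%, so the low share at Lef1 depends on the window. RUNX matches stood at 15.4% and 10.6% against 14.8%, and ETS matches at 13.6% and 14.7% against 15.5%. Summits of the same region at several stages repeat the same letters, so these counts are not independent.

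The E-box share fell in the whole lists from 27.4% at DN and 26.0% at DP to 18.2% at SP4 and 18.7% at SP8. At Lef1 it went from 27.6% and 30.6% to 13.9% and 12.1%, and at Tcf7 from 35.0% and 29.2% to 23.8% and 28.2%. Of the 31 Lef1 regions found only at SP4 or SP8, 2 held an E-box at a summit, compared with 10 of the 32 called at all stages. TCF/LEF matches were in 4 of the 31 and 5 of the 32. A region counted when any of its summits had a match, so regions called at all stages had more summits searched. The counts of the 31 and the 32 are therefore not on an equal footing, and genome shares for these classes were not computed. The drop at Lef1 depends on the window, since within 100 bp the E-box share was 36.7% at DP and 31.8% at SP8, and the latter stood above the 30.8% of the whole SP8 list. At SP4 the drop held in that window, at 25% against 30.3% of the whole list.

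Several rarer motifs were more frequent at Lef1 than at Tcf7 in this window. IKZF matches stood at 28 Lef1 summits (11.4%) and 2 Tcf7 summits (1.18%), against 6.34% of all summits. MYB matches stood at 17 (6.94%) and 2 (1.18%), against 5.23%, and RBPJ matches at 11 (4.49%) and 0, against 1.99%. GATA matches numbered 10 at Lef1 (4.08%) and 3 at Tcf7 (1.78%), against 3.16%, and EGR matches 4 (1.63%) and 0, against 1.29%. Within 100 bp most of the shortage at Tcf7 was gone for IKZF, at 13.0% against 14.6% of all summits, and for RBPJ, at 3.55% against 4.38%, but not for MYB, at 1.78% against 10.4%, or GATA, at 3.55% against 7.58%. No test was made of these differences.

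**Figure D5:**
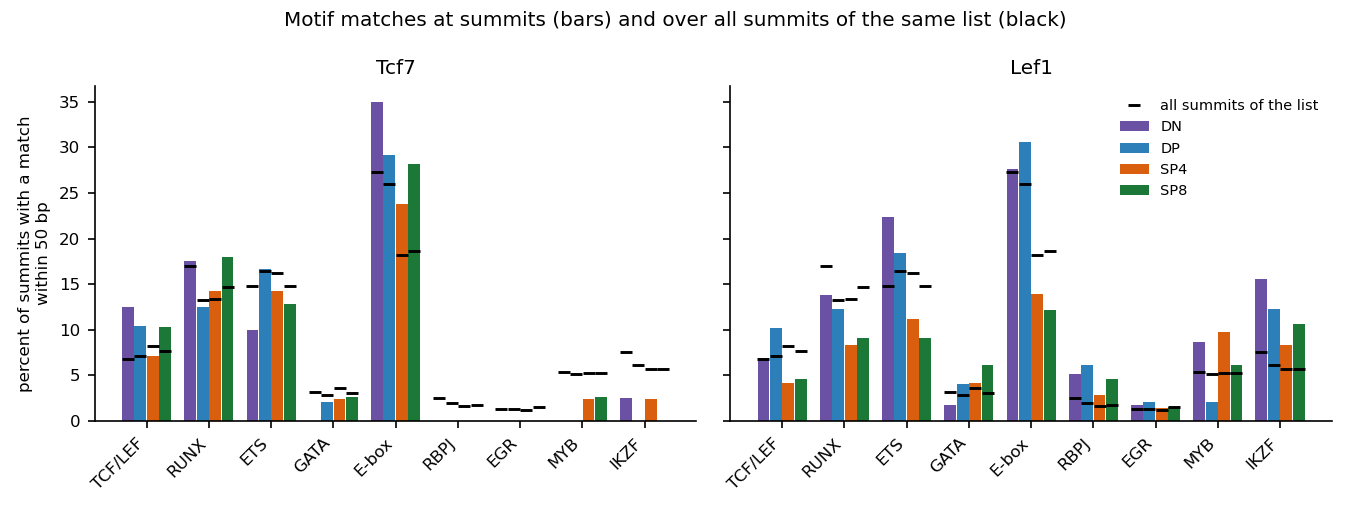
Percent of summits with a motif match within 50 bp (y axis) for 9 motifs (x axis) at Tcf7 and Lef1 in each stage list (colours), with the share over all summits of the same list as black marks. The E-box bars of Lef1 drop from 30.6% at DP to 12.1% at SP8, below the 18.7% of the whole SP8 list, which does not hold within 100 bp.

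Of the other genes with a start at the loci outside the gene bodies, Skp1a and Hadh had a peak over it. The start of Skp1a (chr11:52231637-52232506) had 57 reads at DN, 91 at DP, then 63 at SP4 and 75 at SP8, at summits up to 347 bp apart. Hadh, which encodes a mitochondrial enzyme of fatty acid oxidation, had a region over its start (chr3:131271571-131272619) with 157, 223, 177 and 213 reads in the same order. Both were called at all 4 stages, were higher at DP than at DN, by 1.71 times (1.22 to 2.43) for Skp1a and 1.52 times (1.24 to 1.88) for Hadh, and did not rise from DP to a single positive stage. No peak covered the starts of Olfr1371, Gm26551, Gm12207, A630014C17Rik or Gm42449.

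At Tcf7 the last peak inside the upstream limit ended 49721 bp from the gene (51 reads at DN), and the next one (41 reads at SP8) ended 50075 bp from it and was left out. At the other limit the nearest peak inside (18 reads at DP) began 44266 bp from the gene and the nearest outside (16 reads at DN) 52776 bp. At Lef1 the nearest peaks inside reached 46027 bp upstream (112 reads at SP8) and 48263 bp downstream (177 reads at SP4, the Hadh start), and the nearest outside reached 52108 bp (62 reads at SP8) and 61555 bp (17 reads at SP4).

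The TCF/LEF family and cofactor genes were compared in the same way. Of 23 such genes, 21 had a peak over a protein-coding start at all 4 stages, compared with 51.7% of all protein-coding genes. Aes, a short Groucho-family member, had none at DN, and Dkk1, a secreted Wnt inhibitor, had none at any stage. The 23 genes held a median of 16.7 regions per 100 kb (4.90 to 35.6), and 0 of them was denser than Tcf7 or Lef1.

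Cover over DN had a median of 0.923 at SP4 and 0.940 at SP8 in the list. The medians over genes with at least 20 regions, a floor that some of the list do not reach, were 0.846 and 0.843. Nlk, a kinase, stood at 1.17 at SP4 and Tle4, a Groucho-type corepressor, at 1.15 at SP8, next to 1.13 and 1.14 for Tcf7. Tcf7l1, the gene of TCF-3, had 176 reads at its start at DN, 161 at DP, then 162 at SP4 and 191 at SP8. Tcf7l2, that of TCF-4, had 126, 94, 97 and 84. Both related factors were thus open at their starts at all stages. Axin2, a gene below that floor and itself a known target of Wnt signalling, had 1.86 times the DN cover at SP4 and 1.26 times at SP8, the largest of the 23.

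The genes whose cover followed the profile of Tcf7 most closely were Ttc26, Tmppe and Grb7, with distances of 0.0226, 0.0403 and 0.0452 over the 4 stages on the log2 scale, among 9683 genes with at least 20 regions, covered bases at every stage and no overlap with either locus. For Lef1 they were Gen1, 4930524B15Rik and Ppa2, with distances of 0.0327, 0.0706 and 0.0781. Gen1, which encodes a nuclease that resolves recombination intermediates, had 3682 bp covered at DN, 3256 at DP, then 5129 at SP4 and 5299 at SP8, next to 14101, 12406, 19069 and 20097 bp for Lef1. Ppa2, a mitochondrial pyrophosphatase, lies on chromosome 3 as Lef1 does.

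Stage labels were checked at marker genes. Of 15 T lineage genes, 14 had a peak over a start at all 4 stages, and Zbtb7b, which directs the CD4 lineage, had one at SP4 only (218 reads). Cd8a had 94 reads at DN, 331 at DP, then 43 at SP4 and 322 at SP8, and Ptcra, part of the pre-T cell receptor, 349, 290, 18 and 15. Cd8a was thus high at the CD8+ stages and low at SP4, and Ptcra was high at the early stages. Cd8b1 (162, 332, 186 and 541 reads), Rag1 (170, 316, 47 and 43) and S1pr1 (61, 68, 120 and 264) also differed widely between stages. Cd4 and Il2ra did not separate the stages by their sorting, since Cd4 had between 96 and 103 reads at each, and Il2ra, known from DN cells, had 116, 63, 131 and 171.

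Genes of other lineages were looked at in the same way. The 3 erythroid genes had no peak over a start at any stage. Of 3 natural killer genes, Eomes had one at DP (74 reads), and of 4 thymic epithelial genes, Epcam had one at DN, DP and SP8 (84, 54 and 63 reads). Pdgfra, a fibroblast gene, had one at all stages (47, 122, 36 and 33 reads), as did Pecam1, an endothelial gene (284, 418, 453 and 391 reads), and Col1a1 and Cdh5 had none. Of the B cell genes, Pax5 (213 reads) was called at DN only and Ebf1 at all stages. The 4 myeloid genes summed to 455 reads at DN, 245 at DP, then 190 at SP4 and 381 at SP8, with Lyz2 (80 reads) called at DN only and Csf1r at no stage, and the part of such cells in the DN values of Tcf7 and Lef1 was not tested.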

How the data were processed

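The authors aligned ATAC-seq reads to mm10, joined the reads of the 4 mice in a stage, and called narrow peaks with MACS2 at a 5% false discovery rate. The deposited lists give each peak's summit, its fold enrichment (a ratio over the local background), and the -log10 p-value and -log10 q-value, all as the authors computed them. Peaks were assigned to Tcf7 and Lef1 by GENCODE M21 gene spans, merged where they shared at least 1 bp, and compared without tests because each stage is 1 pool. Reads at summits were solved from the deposited fold enrichment, (reads + 1) over (background + 1), and the Poisson p-value, a step chosen after seeing the data and tested on simulated data. Named regions were those over a start site, and, at each locus, the 3 highest by percentile of fold enrichment outside start sites, the 3 highest single-stage regions, the 3 with the largest spread of percentile between stages and, added after seeing the data, the 5 with the widest range of reads among regions called at all stages. Other regions named with values were chosen after their values were seen. Named genes were Tcf7 and Lef1, genes with a start at the loci, the 3 nearest cover profiles, and Tcf7l1, Tcf7l2 and any list member needed for a count of 5 or fewer. The members and lists were chosen with earlier results of these data known. Alternatives were a stricter q-value, other flanks, other merging, equal list sizes, other height ranks, wider motif windows and other scaling. Python 3.11.15, pandas 2.3.3, numpy 2.4.6, scipy 1.17.1 and matplotlib 3.10.9 were used. Promoter starts are from RefSeq (GRCm38.p6). A marker gene, and the counts that include it, are not reported here.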

Additional observations from a re-analysis of the deposited data

How the results depend on the processing

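The comparisons rest on 1 pool a stage, so differences between mice at these loci cannot be measured from the lists. A peak list says only where a threshold was passed. Over all peaks, the paper describes high correlations between its replicates. No paired analysis was possible because the 4 mice of each stage were pooled before peak calling. Of 146 alternative values for 44 results, 109 stayed within set limits. The limit was 1.5 times the main count or ratio, or, for a share or a median percentile, its 95% interval. A ratio that crossed 1 was counted as changed whatever its size, as 2 were. The cause of the changes was not tested except where the setting itself shows it. A q-value of at most 0.001, peaks overlapping the locus by 1 bp, merging by summits within 100 bp, and regions with summits within 100 bp at both stages (added after seeing the data) moved none. Counting the gene body alone left 77 regions, with 9, 18, 10 and 14 peaks at Tcf7 at DN, DP, SP4 and SP8 and 32, 30 and 46 at Lef1 at DN, DP and SP4. With 20 kb on either side Tcf7 held 26 peaks at DN, 26 at SP4 and 23 at SP8, and with 100 kb 69 at DN and 64 at SP8. Equal numbers of peaks from each list left 30 Lef1 peaks at DN and turned the cover of Lef1 at DP over DN to 1.24. Scaling reads so that the median ratio over all regions was 1, added after seeing the data, turned the median ratio at Tcf7 of SP8 over DP to 0.926. Under it, Tcf7 regions with at least 2 times the reads numbered 4 from DN to DP, 1 from DP to SP4 and 3 from DP to SP8. Those with at most 1/2 numbered 1, 0 and 3. At Lef1 these counts were 3, 12 and 10, and 1, 2 and 4. The genome shares were 5.90%, 10.8% and 9.64%, and 13.3%, 10.1% and 11.5%. Ranked by -log10 q in place of fold enrichment, the median percentile at Tcf7 was 57.6, 48.0, 48.7 and 59.6 at DN, DP, SP4 and SP8. At Lef1 it was 33.4, 51.2, 41.0 and 48.5, of which DN and DP stayed within their intervals. Ranked by recovered reads, added after seeing the data, it was 69.5, 74.0, 72.7 and 73.8 at Tcf7. At Lef1 it was then 43.1, 55.6, 62.6 and 66.6, of which DP stayed within its interval. Motif windows of 100 bp on each side of the summit raised the shares in the whole lists as well as at both loci together, where they were 19.6% for TCF/LEF (15.5% in all lists), 20.8% for RUNX (23.7%), 23.9% for ETS (24.1%), 34.5% for the E-box (35.5%), 6.76% for RBPJ (4.38%), 4.11% for EGR (2.98%), 8.45% for MYB (10.4%), 17.4% for IKZF (14.6%) and 4.83% for GATA (7.58%).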
